A study of Mus musculus with 8 samples.

Results

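The alpha-class glutathione transferase genes of mouse liver are described here across livers with and without Arid1a in hepatocytes. The 5 genes Gsta1, Gsta2, Gsta3, Gsta4 and the predicted gene Gm10639 were taken by symbol from 35638 genes in the table, and the group was selected on the KO against WT FPKM values reported below. RNA came from frozen liver, taken at postnatal day 90, of a C57/B6 and 129 mix. In 4 samples the genotype was Arid1a Fl/Fl with Alb-cre (KO), and in 4 samples it was Arid1a Fl/Fl without Cre (WT). Alb-cre drives the recombinase from the albumin promoter, so deletion is directed at hepatocytes, and all 8 samples share the floxed alleles. The ARID1A protein is part of SWI/SNF, a complex that moves nucleosomes along DNA. Whether each sample is a separate animal is not stated in the labels, so the spread behind every p-value may be technical.

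Glutathione transferases join the tripeptide glutathione to reactive, fat-soluble compounds, which makes them water-soluble and ready for export. The alpha class is a main group of these enzymes in hepatocytes. Gsta1 and Gsta2 enzymes act on drugs and on organic hydroperoxides, and their genes are known in rodents for induction by xenobiotics and by the antioxidant-responsive factor NRF2. The Gsta4 enzyme prefers hydroxynonenal and related aldehydes that arise from oxidised lipids. The Gsta3 enzyme of mouse liver is known for conjugating the reactive epoxide of aflatoxin.

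The group is not a single cluster. Gsta4 (ENSMUSG00000032348, chromosome 9, 78182774 to 78209349, plus strand), Gsta1 (ENSMUSG00000074183, 78230656 to 78242684, plus strand), Gm10639 (ENSMUSG00000074179, 78289923 to 78305525, plus strand) and Gsta2 (ENSMUSG00000057933, 78331018 to 78355788, minus strand) lie within 173 kb of chromosome 9 in the build GRCm38. Gsta3 (ENSMUSG00000025934, chromosome 1, 21240589 to 21265661, plus strand) lies on another chromosome. Gm3776 is annotated on chromosome 9 between Gsta1 and Gm10639 (78257129 to 78269166). It was not found among the genes with FPKM values, so its expression could not be examined. The annotated proteins hold 221 residues in Gsta3, 222 in Gsta2, Gm10639 and Gsta4, and 223 in Gsta1.

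The first 120 coding bases show how close the copies on chromosome 9 are, and this limits what can be said of each alone. Capitals mark letters that differ from Gsta1 in a pairwise alignment of the whole coding sequences from GENCODE.
Gsta1: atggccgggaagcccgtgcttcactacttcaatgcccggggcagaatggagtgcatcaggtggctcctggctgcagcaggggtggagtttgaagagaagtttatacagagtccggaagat
Gsta2: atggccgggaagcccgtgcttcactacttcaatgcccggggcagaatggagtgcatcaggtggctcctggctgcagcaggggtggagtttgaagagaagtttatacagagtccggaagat
Gm10639: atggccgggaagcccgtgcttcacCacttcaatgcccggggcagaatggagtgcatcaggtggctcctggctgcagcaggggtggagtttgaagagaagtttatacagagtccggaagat
Gsta4: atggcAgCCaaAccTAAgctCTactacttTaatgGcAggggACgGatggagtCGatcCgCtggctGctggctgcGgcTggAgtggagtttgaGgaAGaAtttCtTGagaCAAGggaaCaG
Gsta3: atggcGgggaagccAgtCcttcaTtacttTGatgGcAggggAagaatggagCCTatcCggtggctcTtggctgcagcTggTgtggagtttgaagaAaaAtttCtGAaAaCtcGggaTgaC
In this stretch Gsta2 differed from Gsta1 at 0 letters and Gm10639 at 1, whereas Gsta3 differed at 26 and Gsta4 at 36. Over the whole coding sequence, Gsta1 shared 97.5% of aligned positions with Gsta2, 96.9% with Gm10639, 74.0% with Gsta3 and 66.2% with Gsta4. Gsta2 and Gm10639 shared 98.5%, and Gsta1 and Gm3776 shared 99.7%.

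The closeness reaches the scale of sequencing reads. Of the 905 different windows of 50 nt in annotated Gsta1 transcripts, 90.5% also occurred in a transcript of another gene, mostly Gm3776 (75.7%) and Gsta2 (46.6%). The share was 49.8% for Gsta2 and 49.4% for Gm10639. With windows of 100 nt it was 80.6% for Gsta1, 28.4% for Gsta2 and 31.9% for Gm10639. For Gsta4 it was 0% and for Gsta3 0.3% at 50 nt, and 0% for each at 100 nt. Neither the read length nor the handling of shared reads was given in the sources. The values of Gsta1, Gsta2 and Gm10639 are therefore uncertain one by one, and their sum is given beside them, whereas Gsta4 and Gsta3 share almost none of these windows.

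**Figure D1:**
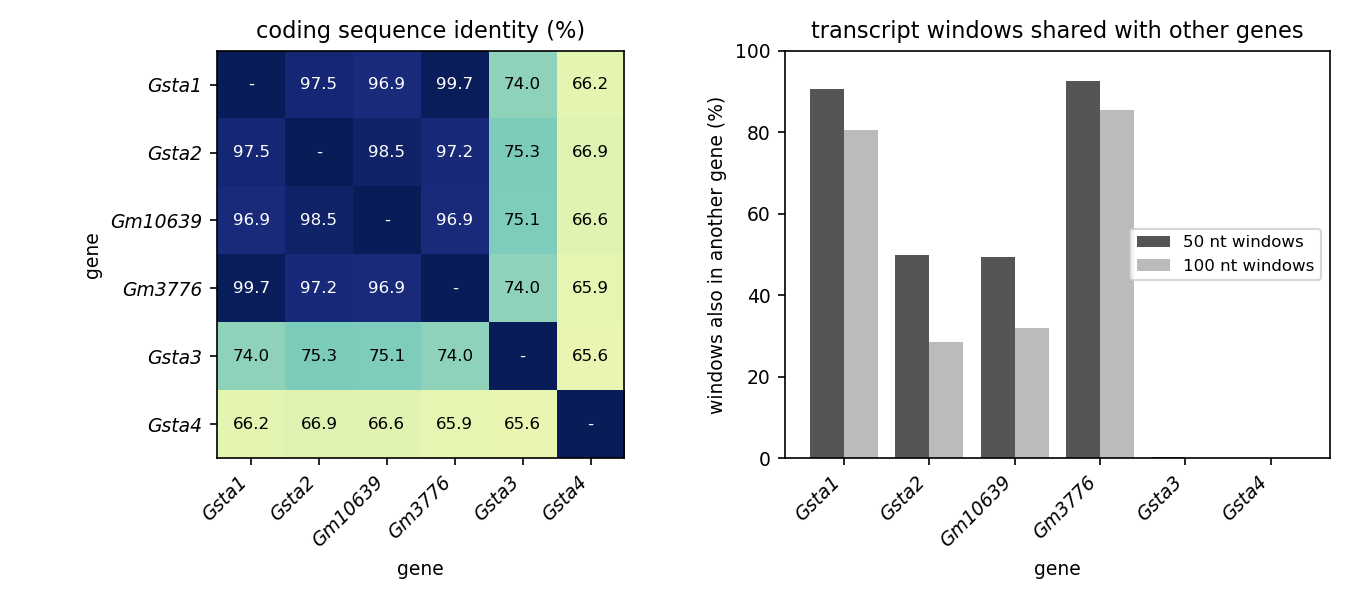
Left, identity of coding sequences between pairs of alpha-class genes, in percent of aligned positions. Right, the percentage of 50 nt and 100 nt windows of each gene's annotated transcripts that also occur in a transcript of another gene: 90.5% and 80.6% for Gsta1, against 0% for Gsta4.

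RNA levels are given as FPKM, fragments scaled to gene length and to library size. Comparison between genes depends on the length used for each, which was not given. Annotated Gsta3 transcripts run from 742 to 2792 nt, so its level and share beside the other genes are uncertain in this way. Depth was estimated from the steps between low values at 13700000 to 15300000 reads in the KO libraries and 12400000 to 13600000 reads in the WT libraries. These depths, and every number of reads per gene derived from them, could be off by a factor of 2. Arid1a itself was at 2.70, 2.86, 3.46 and 2.59 FPKM in KO 1 to KO 4, against 5.16, 8.38, 3.998 and 4.10 FPKM in WT 1 to WT 4. Hepatocyte markers such as Alb summed to 32980 to 49649 FPKM in KO and 29882 to 41598 FPKM in WT. All 8 libraries held Xist RNA (53.5 FPKM or more), while 4 Y-linked genes summed to at most 0.0876 FPKM. KO 2 and WT 4 stand apart from their groups in Cyp4a10. It was at 44.3 FPKM in KO 2 against 5.93 to 16.7 in the other KO libraries. In WT 4 it was at 317 FPKM against 41.8 to 54.3 in the other WT libraries. Dbp was at 0.569 FPKM in WT 4 against 22.6 to 49.3 in the other WT libraries. In KO 2 Dbp was at 58.9 FPKM, less clearly apart from the other KO libraries (20.8 to 43.3). An FPKM listed at 0 may be a failed estimate, since Fth1, the ferritin heavy chain gene that liver uses throughout, was listed at 0 in 6 of the 8 libraries.

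The 5 genes were chosen with these KO and WT values known, so their differences are given as descriptions, with no test. The 4 genes of chromosome 9 were higher in every KO library than in every WT library, and Gsta3 of chromosome 1 was not. Of 11266 genes with a mean of at least 1 FPKM, 3.05% lay higher in KO in this way, 3.18% lay lower, and 6.23% did not overlap in either direction. Nothing is read from these shares about the 4 genes, since the contrast chose them.

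Gsta1 was at 9.92, 7.14, 9.97 and 7.003 FPKM in KO 1 to KO 4, against 0.848, 1.07, 0.787 and 0.460 FPKM in WT 1 to WT 4. Its lowest KO library lay well above its highest WT library. The means were 8.51 ± 1.66 FPKM in KO and 0.791 ± 0.252 FPKM in WT (SD, n = 4 each), a ratio of 10.8 and a log2 change of FPKM + 1 of 2.40 ± 0.16 (SE). At the estimated depth and the length of its longest transcript (875 nt), the KO values came to about 90.7 to 120 reads and the WT values to only about 4.99 to 12.6 reads, so relative counting error is larger in WT.

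Gsta2 was at 26.2, 28.8, 36.8 and 23.8 FPKM in KO 1 to KO 4, against 3.83, 7.28, 2.27 and 2.64 FPKM in WT 1 to WT 4. WT 2 lay above the other WT libraries and still below every KO library. The means were 28.9 ± 5.63 FPKM in KO and 4.004 ± 2.28 FPKM in WT (SD, n = 4 each), a ratio of 7.23 and a log2 change of 2.66 ± 0.33 (SE). Of the 5 genes it had the widest spread in WT, with a coefficient of variation of 57.0% in WT and 19.5% in KO.

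Gm10639, a predicted protein-coding gene between Gm3776 and Gsta2, was at 7.71, 7.17, 9.28 and 6.27 FPKM in KO 1 to KO 4, against 1.27, 1.65, 0.647 and 1.27 FPKM in WT 1 to WT 4. The groups did not overlap. The means were 7.61 ± 1.26 FPKM in KO and 1.21 ± 0.415 FPKM in WT (SD, n = 4 each), a ratio of 6.30 and a log2 change of 1.97 ± 0.18 (SE).

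The summed FPKM of these 3 close copies, which a shift of reads among them changes little, was 43.9, 43.2, 56.0 and 37.1 in KO 1 to KO 4, against 5.94, 9.996, 3.70 and 4.37 in WT 1 to WT 4. Gm3776, which shared 99.7% of aligned coding positions with Gsta1, has no value here. Reads shared with it could still move the sum and its ratio, and their part was not tested. The KO sums were all higher, with means of 45.05 ± 7.93 FPKM in KO and 6.003 ± 2.82 FPKM in WT (SD, n = 4 each) and a ratio of 7.50. Within the sum, Gsta2 held 59.8 to 66.8% in KO and 60.5 to 72.8% in WT. The share of Gsta1 was 16.5 to 22.6% in KO and 10.5 to 21.3% in WT, and that of Gm10639 was 16.6 to 17.6% in KO and 16.5 to 29.0% in WT. The make-up of the sum thus overlapped between KO and WT while its size did not. Among KO libraries KO 3 was highest and KO 4 lowest in each of the 3 genes, and among WT libraries WT 2 was highest in each. The part of shared reads in this common order was not tested.

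Gsta4, which has no such copies, was at 32.8, 35.7, 36.0 and 41.1 FPKM in KO 1 to KO 4, against 18.5, 18.4, 14.7 and 12.6 FPKM in WT 1 to WT 4. The groups did not overlap. The means were 36.4 ± 3.45 FPKM in KO and 16.1 ± 2.91 FPKM in WT (SD, n = 4 each), a ratio of 2.27 and a log2 change of 1.14 ± 0.14 (SE), both smaller than in each of the 3 copies. Its order of libraries differed from that of the copies, with KO 4 highest in KO and WT 4 lowest in WT. Its values rest on about 443 to 595 reads in KO and 153 to 243 reads in WT.

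Gsta3, by far the most abundant of the 5, was at 195, 440.4, 294 and 386 FPKM in KO 1 to KO 4, against 332, 358, 250.3 and 456 FPKM in WT 1 to WT 4. The KO range held all WT values except that of WT 4. The means were 329 ± 108 FPKM in KO and 349 ± 84.9 FPKM in WT (SD, n = 4 each), a ratio of 0.942. Its log2 change of -0.12 ± 0.31 (SE) was smaller than the spread between libraries, and it was 0.11 without KO 1 and 0.02 without WT 4. The long noncoding gene Gm28836 is annotated on the opposite strand over part of Gsta3, and whether counting used strand is not given. It was at 4.93 ± 0.947 FPKM in KO and 5.48 ± 2.87 FPKM in WT (SD, n = 4 each), low beside Gsta3 on the same scale.

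**Figure D2:**
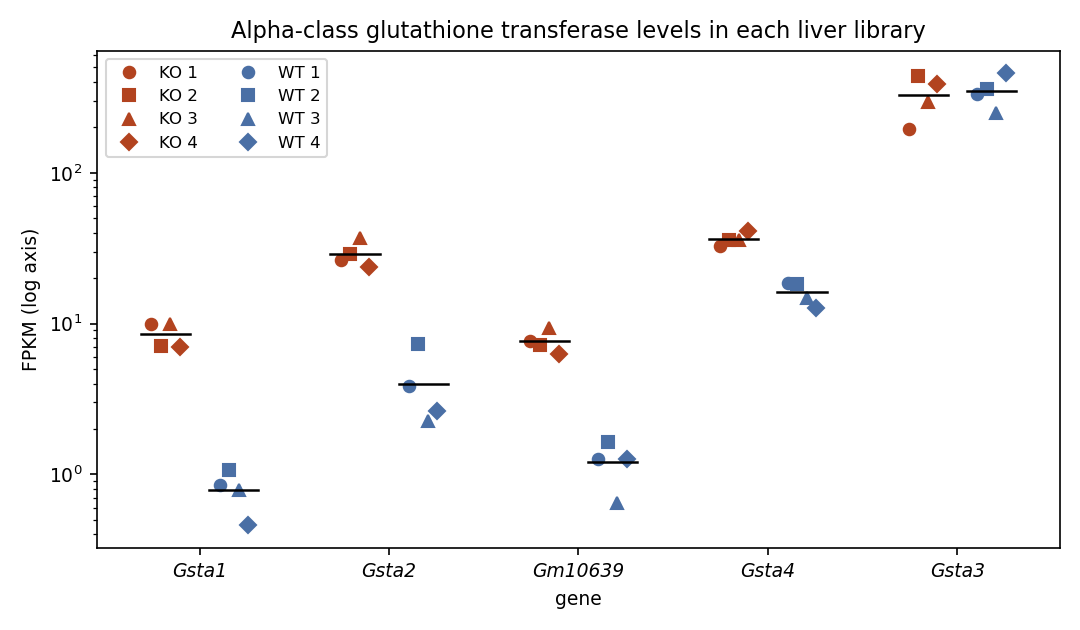
FPKM on a log axis for the 5 alpha-class genes, one symbol per library, KO left of WT, with the group mean as a bar. The KO and WT symbols are apart for Gsta1, Gsta2, Gm10639 and Gsta4 and overlap for Gsta3, where the KO libraries run from 195 to 440.4 FPKM.

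The order of levels per length differed between the genotypes at its lower end. In KO it ran from Gsta3 through Gsta4, Gsta2 and Gsta1 to Gm10639. The library ranges of Gsta4 and Gsta2 overlapped there (32.8 to 41.1 and 23.8 to 36.8 FPKM), as did those of Gsta1 and Gm10639. In WT it ran from Gsta3 through Gsta4, Gsta2 and Gm10639 to Gsta1, and only the last pair had overlapping ranges. By mean level among the 11266 genes, Gsta3 ranked 133rd in KO and 125th in WT, Gsta4 973rd in KO and 2044th in WT, Gsta2 1169th in KO and 5966th in WT, and Gsta1 3419th in KO and 11085th in WT. These genes were kept for a mean of at least 1 FPKM over KO and WT together. Gsta1, with a WT mean of 0.791 FPKM, was kept through its KO values. Its WT rank near the bottom follows from that filter and is not its standing among genes expressed in WT.

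The pool of alpha-class transcripts overlapped in size between the genotypes and did not overlap in make-up. The shares derive from the same contrast that chose the 5 genes, so their separation is a description and no independent result. The summed FPKM of the 5 genes was 272, 519, 386 and 464 in KO 1 to KO 4, against 356, 387, 268.7 and 473 in WT 1 to WT 4, and the groups overlapped. Its means were 410.3 ± 107 FPKM in KO and 371 ± 84.4 FPKM in WT (SD, n = 4 each). Gsta3 made up 71.8, 84.8, 76.2 and 83.1% of the sum in KO 1 to KO 4, against 93.1, 92.7, 93.1 and 96.4% in WT 1 to WT 4. The 4 genes of chromosome 9 made up 15.2 to 28.2% in KO and 3.59 to 7.35% in WT. Among KO libraries their share was highest in KO 1 and lowest in KO 2, where Gsta3 was at its lowest and highest FPKM, while their own sum lay between 76.7 and 92.0 FPKM in the 4 KO libraries.

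**Figure D3:**
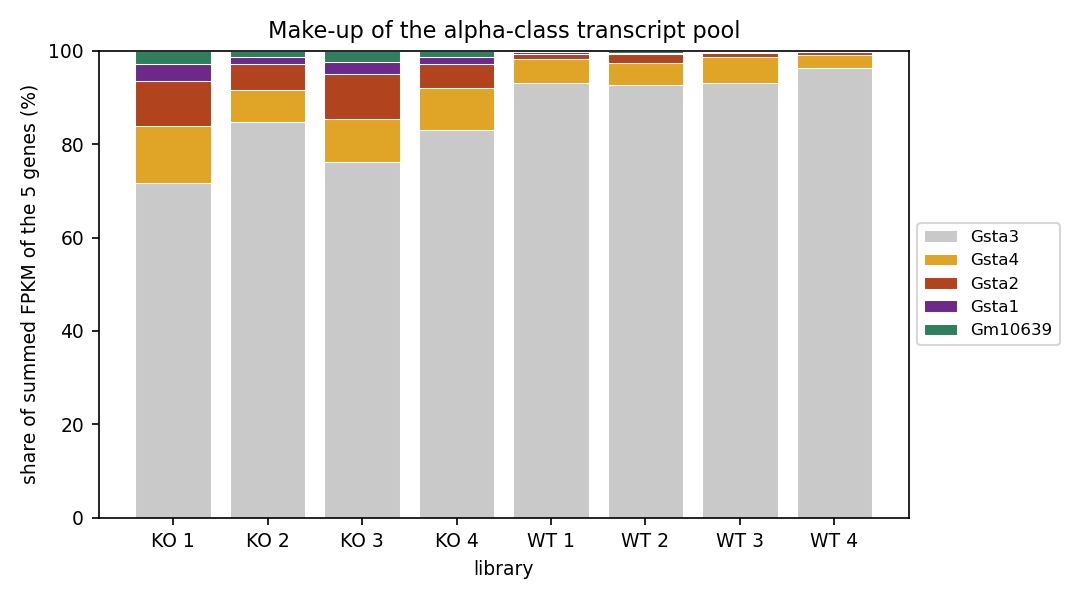
Share of each gene in the summed FPKM of the 5 alpha-class genes, in percent, for each KO and WT library. Gsta3 holds 71.8 to 84.8% in KO and 92.7 to 96.4% in WT, and the share of the chromosome 9 genes is larger in each KO library than in any WT library. The genes were chosen on this contrast.

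Promoters of 4 of the 5 genes were found in the RefSeq table of GRCm38.p6. The stretches below run from 250 bases before to 20 bases after the RefSeq start, on the gene's strand, and are shown because the 3 close copies were all higher in KO. Capitals mark matches to 2 of the 4 motifs searched on either strand over the full 300 bases, the xenobiotic response element core GCGTG and the antioxidant response element core TGACNNNGC.
Gsta1 (chr9:78230419-78230688, plus strand): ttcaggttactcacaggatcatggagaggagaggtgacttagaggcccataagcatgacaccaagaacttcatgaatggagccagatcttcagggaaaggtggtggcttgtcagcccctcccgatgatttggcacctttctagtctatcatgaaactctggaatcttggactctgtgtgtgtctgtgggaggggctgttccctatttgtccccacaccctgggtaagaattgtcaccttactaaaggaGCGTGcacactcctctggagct
Gm10639 (chr9:78289678-78289947, plus strand): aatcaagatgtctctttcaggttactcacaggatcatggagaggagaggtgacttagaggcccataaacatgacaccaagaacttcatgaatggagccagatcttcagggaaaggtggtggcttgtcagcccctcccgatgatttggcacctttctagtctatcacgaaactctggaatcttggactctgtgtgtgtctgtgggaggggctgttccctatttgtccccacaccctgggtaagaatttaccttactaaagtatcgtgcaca
Gsta2 (chr9:78347126-78347395, minus strand): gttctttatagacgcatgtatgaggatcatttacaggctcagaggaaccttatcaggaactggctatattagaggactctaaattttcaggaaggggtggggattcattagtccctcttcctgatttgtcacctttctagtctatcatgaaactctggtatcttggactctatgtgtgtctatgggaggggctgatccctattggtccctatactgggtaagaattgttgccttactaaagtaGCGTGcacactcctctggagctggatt
Gsta3 (chr1:21240335-21240604, plus strand): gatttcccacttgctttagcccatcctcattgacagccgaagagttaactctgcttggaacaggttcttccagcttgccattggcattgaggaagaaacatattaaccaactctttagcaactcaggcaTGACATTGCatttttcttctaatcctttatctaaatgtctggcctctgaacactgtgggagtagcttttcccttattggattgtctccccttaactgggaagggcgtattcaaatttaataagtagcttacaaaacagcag
Over these 270 bases, Gsta1 shared 87.7% of aligned positions with Gm10639, 72.6% with Gsta2 and 50.7% with Gsta3. The annotated starts of the copies are not at the same aligned letter, so part of the difference between Gsta1 and Gm10639 lies at the ends of the stretches.

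The core GCGTG occurred once in Gsta1, from 2 bases before the start, and once in Gsta2, from 7 bases before it, and in neither Gm10639 nor Gsta3. Of 32851 promoters of the same length, 32.39% held it. The core TGACNNNGC occurred once in Gsta3, from 121 bases before the start, and in none of the copies, and 12.39% of promoters held it. The AP-1 motif TGANTCA, held by 7.81% of promoters, and the HNF1 palindrome, held by 0.01%, occurred in none of the 4. A missing match says only that these letters are not in this window.

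Genes around the cluster were tested with limma on log2(FPKM + 1) over all genes (Benjamini-Hochberg adjusted p under 0.05). Of 11266 genes 0.763% were called (86 genes), 0.408% higher and 0.355% lower in KO. That count was 136 without KO 2, 52, 35 and 39 without KO 1, KO 3 and KO 4, and 37, 46, 42 and 69 without WT 1 to WT 4. Within 500 kb of the chromosome 9 genes 11 other genes were tested and 1 passed. It was Gm8074, annotated as an unprocessed pseudogene between Gm10639 and Gsta2 (78321299 to 78322354, minus strand), at 4.11, 5.24, 4.63 and 5.49 FPKM in KO 1 to KO 4, against 1.76, 0.646, 0.137 and 0.154 FPKM in WT 1 to WT 4. Every KO library was higher (log2 change 1.90, limma adjusted p = 0.0177), and the adjusted p was 0.0664, 0.0643, 0.0570 and 0.0647 without KO 3, KO 4, WT 2 and WT 3. Of its 203 windows of 50 nt, 16.7% occurred in another gene, mostly Gm10639 (14.3%), and of its 153 windows of 100 nt 0% did. With the read length unknown, the part of shared reads in its value was not tested.

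The other tested neighbours on chromosome 9 had log2 changes from -0.49 (Fbxo9) to 0.41 (Ick), and none passed. Fbxo9, which encodes an F-box protein, was at 13.6 ± 1.97 FPKM in KO and 20.3 ± 6.55 FPKM in WT, and Ick, a kinase gene that lies between Fbxo9 and Gsta4, was at 1.505 ± 0.676 FPKM in KO and 0.837 ± 0.148 FPKM in WT (SD, n = 4 each). Gclc, the catalytic subunit of the enzyme that starts glutathione synthesis, lies 428 kb from Gsta4 and was at 35.9 ± 6.03 FPKM in KO and 40.6 ± 12.9 FPKM in WT (SD, n = 4 each, limma adjusted p = 0.938). The fatty acid elongase gene Elovl5, Rn7sk, Mto1, the translation factor gene Eef1a1, Gm26377, Slc17a5 and Gm8116 had log2 changes between -0.25 and 0.23. Near Gsta3 on chromosome 1, 4 genes were tested and 0 passed. Mcm3, a replication helicase gene, had the largest change there (log2 change 0.97, limma adjusted p = 0.266), and Tram2, Gm28836 and Gm7658 lay between -0.16 and 0.03.

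**Figure D4:**
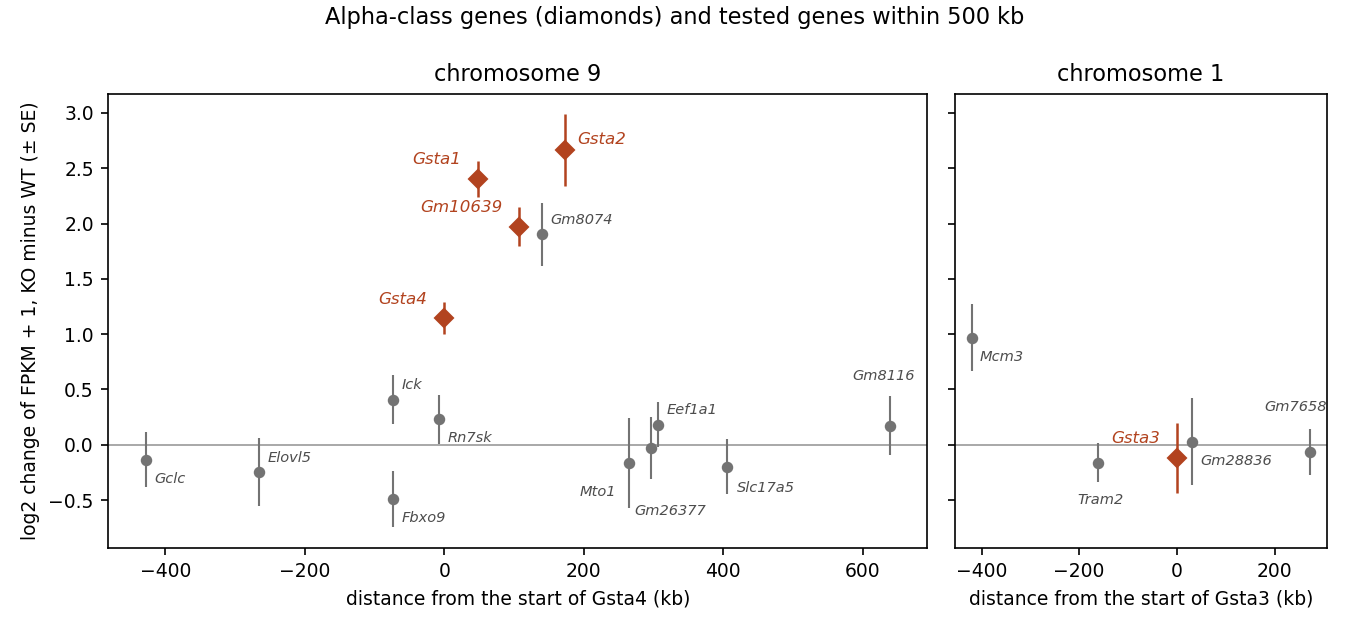
Log2 change of FPKM + 1, KO minus WT with SE, against distance from the start of Gsta4 on chromosome 9 (left) or of Gsta3 on chromosome 1 (right), for alpha-class genes (diamonds) and tested genes within 500 kb (circles). The diamonds of chromosome 9 lie between 1.14 and 2.66, Gm8074 at 1.90, and the other circles of that panel between -0.49 and 0.41.

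Over all 11266 genes 0.408% were called higher and 0.355% lower in KO. Among the other glutathione transferases 0 of 17 tested genes fell and 1 rose. This was Gstm3, of the mu class, at 124, 78.8, 81.9 and 95.6 FPKM in KO 1 to KO 4, against 27.8, 37.0, 24.7 and 38.5 FPKM in WT 1 to WT 4. The groups were apart (log2 change 1.54 ± 0.22 SE, limma adjusted p = 0.0142), and the adjusted p was 0.0509 without KO 4 and 0.0546 without WT 1. Mu-class genes have close copies too, so this single value is uncertain. Gstm2, of the same class, was at 45.2 ± 13.1 FPKM in KO and 21.7 ± 5.22 FPKM in WT (SD, n = 4 each) and did not pass (limma adjusted p = 0.154). Nor did Gstt3, at 49.5 ± 8.28 FPKM in KO and 31.5 ± 5.63 FPKM in WT (SD, n = 4 each, limma adjusted p = 0.242). These 3 genes of the 17 were higher in every KO library than in every WT library, and 0 were lower. Over all genes the shares were 3.05% and 3.18%. The median change of the 17 genes was 0.13, beside -0.03 over all 11266 genes. Of the 17 changes 12 were positive and 5 negative, where 45.5% were positive over all genes. Of the 3 tested mitochondrial and membrane-bound enzymes 0 passed, and Mgst1, the microsomal transferase gene, had the smallest p (432 ± 107 FPKM in KO and 561 ± 160 FPKM in WT, SD, n = 4 each, limma adjusted p = 0.736).

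The lists of glutathione synthesis and recycling and of peroxidases and thiol reductases held no call. Of 16 tested synthesis and recycling genes 0 passed (median log2 change -0.14), the smallest p being that of Cndp2, a dipeptidase gene, at 5.12 ± 1.18 FPKM in KO and 7.95 ± 2.39 FPKM in WT (limma adjusted p = 0.482). Of 13 tested peroxidase and thiol reductase genes 0 passed (median -0.14), with Glrx5, a mitochondrial glutaredoxin gene, at 23.4 ± 2.10 FPKM in KO and 18.97 ± 2.25 FPKM in WT (SD, n = 4 each in these 2 genes, limma adjusted p = 0.617). Over all genes 1105 had an unadjusted p under 0.05, so a missed call here is no sign of equal levels.

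Of 28 tested NRF2 regulators and targets outside glutathione metabolism, 2 rose and 0 fell (median log2 change 0.07), beside 0.408% and 0.355% over all genes. Abcc4, an exporter of organic anions, was at 2.84, 2.24, 2.96 and 1.97 FPKM in KO 1 to KO 4, against 0.236, 0.928, 0.125 and 0.3997 FPKM in WT 1 to WT 4 (limma adjusted p = 0.0257). Akr1b7, an aldo-keto reductase gene, was at 5.40, 3.84, 2.54 and 2.18 FPKM in KO 1 to KO 4, against 0.793, 0.489 and 0.376 FPKM in WT 1, WT 2 and WT 4 and a listed 0 in WT 3 (limma adjusted p = 0.0297). Every KO library lay above every WT library in these 2 genes. The call of Abcc4 was kept without KO 2 and without WT 2 and lost in the other 6 fits that left out 1 library (limma adjusted p up to 0.0937). That of Akr1b7 was kept without KO 4 alone (up to 0.0871). Nfe2l2, which encodes NRF2, was at 17.2 ± 1.61 FPKM in KO and 17.9 ± 4.11 FPKM in WT, and its inhibitor gene Keap1 at 8.03 ± 1.83 FPKM in KO and 8.57 ± 2.69 FPKM in WT (SD, n = 4 each). The quinone reductase gene Nqo1, chosen here after its values were seen, was at 1.37 ± 0.519 FPKM in KO and 3.07 ± 1.20004 FPKM in WT (limma adjusted p = 0.305). The heme oxygenase gene Hmox1, chosen in the same way, was at 3.90, 2.03, 19.8 and 4.31 FPKM in KO 1 to KO 4, against 0.748, 0.543, 0.681 and 0.390 FPKM in WT 1 to WT 4 (limma adjusted p = 0.136).

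A list of receptors and transcription factors was drawn up for possible action on alpha-class genes, which was not checked for each member. Of its 19 tested genes 0 passed (median log2 change -0.09). Esrra, a nuclear receptor gene, had the smallest p, at 8.79 ± 1.37 FPKM in KO and 6.02 ± 0.279 FPKM in WT (SD, n = 4 each, limma adjusted p = 0.345). The xenobiotic receptor genes Nr1i2 and Ahr had log2 changes of -0.06 and -0.33. Nr1i3, the gene of the xenobiotic receptor CAR and chosen after its values were seen, was at 29.2, 76.7, 25.0 and 29.2 FPKM in KO 1 to KO 4, against 68.3, 58.2, 82.2 and 56.2 FPKM in WT 1 to WT 4. Its limma adjusted p was 0.417 with all libraries and 0.0289 without KO 2, the KO library with the high value. In the fits without each other single library the limma adjusted p was 0.413 to 0.699. The call thus appears only when the library that departs in this same gene is left out.

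The later steps of conjugate handling held a few calls. Of 14 tested exporters 1 rose and 1 fell, beside 0.408% and 0.355% over all genes. The rise was that of Abcc4, and Abcc3, an exporter of glucuronide and glutathione conjugates at the sinusoidal side of hepatocytes, fell to 11.9, 3.87, 5.34 and 3.48 FPKM in KO 1 to KO 4, against 42.1, 36.6, 31.8 and 58.6 FPKM in WT 1 to WT 4 (log2 change -2.70 ± 0.34 SE, limma adjusted p = 0.00817). Of 6 tested genes of mercapturic acid formation 0 passed, with Ccbl1, a cysteine conjugate lyase gene, at 58.2 ± 9.86 FPKM in KO and 28.1 ± 7.56 FPKM in WT (SD, n = 4 each, limma adjusted p = 0.0981). Of 21 tested genes that clear reactive aldehydes 18 changes were negative (median -0.23). Over all 11266 genes 45.5% of changes were positive (median -0.03), and 0.408% were called higher. Of the 21 genes 0 fell and 2 rose. These were Akr1b7 and the mitochondrial aldehyde dehydrogenase gene Aldh1b1, at 55.2, 60.6, 83.7 and 54.5 FPKM in KO 1 to KO 4, against 22.9, 14.9, 18.6 and 14.7 FPKM in WT 1 to WT 4 (log2 change 1.78 ± 0.21 SE, limma adjusted p = 0.00649). Aldh1b1 kept its call in all 8 fits that left out 1 library.

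**Figure D5:**
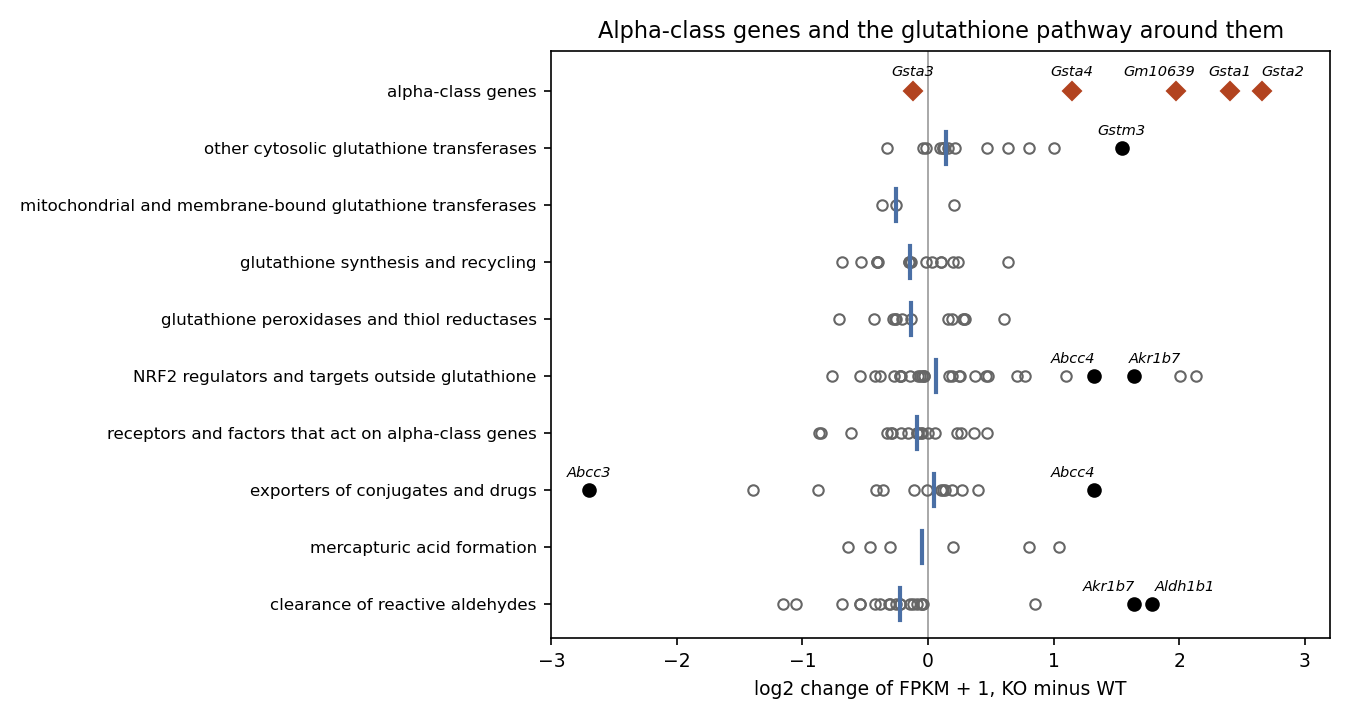
Log2 change of FPKM + 1, KO minus WT, for the alpha-class genes (diamonds, not tested) and for each tested gene of 9 lists (circles, filled where the limma adjusted p was under 0.05), with the list's median as a vertical bar. Medians lie between -0.25 and 0.14, and the filled circles are Gstm3, Abcc4, Akr1b7, Aldh1b1 and Abcc3.

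The genes with the closest profile over the 8 libraries were found by the root mean square distance between log2(FPKM + 1) values, each gene centred on its own mean. For Gsta1 they were the imprinted noncoding RNA gene H19 (distance 0.22), the trefoil factor gene Tff3 (0.29) and Gm10639 (0.30), followed by Gsta2 (0.35). H19 was at 4.85 ± 1.28 FPKM in KO and 0.0786 ± 0.0539 FPKM in WT (SD, n = 4 each). Tff3 was at 2.03 to 3.82 FPKM in KO and was listed at 0 in the 4 WT libraries. For Gsta2 the nearest were Gsta1 (0.35), H19 (0.39) and Gm10639 (0.43).

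The nearest to Gsta4 were other genes, namely BC048546 (0.18), the sulfotransferase gene Sult1a1 (0.18) and the interferon-stimulated gene Oas1a (0.20). Sult1a1 was at 287 ± 33.2 FPKM in KO and 153 ± 26.6 FPKM in WT, and BC048546 at 18.97 ± 4.77 FPKM in KO and 8.11 ± 1.49976 FPKM in WT (SD, n = 4 each). The distance between Gsta4 and Gsta1 was 0.67, and Gsta3 was at 1.37 from Gsta1 and 0.75 from Gsta4. Distances are descriptions, and a gene with a change of like size between the groups is close by construction.

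Summed markers of macrophages, endothelial cells and stellate cells were higher in every KO library than in every WT library. Macrophage markers had a positive change in 11 of 11 genes, beside 45.5% of all genes. Their summed levels were 23.2 to 166 FPKM in KO and 7.25 to 16.5 FPKM in WT. Endothelial markers summed to 5.05 to 16.7 FPKM in KO and 1.68 to 4.5001 FPKM in WT. Stellate cell markers summed to 8.19 to 17.8 FPKM in KO and 1.17 to 5.27 FPKM in WT. Only 5 of 8 endothelial and 1 of 8 stellate markers had the mean of at least 1 FPKM over all libraries needed for testing. Their changes were positive, but a marker of any type that reaches this mean through KO is positive by construction. No support is drawn from these signs. No macrophage, endothelial or stellate marker was listed at 0 throughout. Of the 11 macrophage, 5 endothelial and 1 stellate markers tested, none passed the test over all genes. The part of these cells in the alpha-class values was not tested. KO 2 had the lowest macrophage sum of the KO libraries (23.2 FPKM), which was still above the highest WT sum (16.5 FPKM). Markers of bile duct cells summed to 0.612 to 6.84 FPKM in KO and 0.363 to 1.02 FPKM in WT, and these ranges overlapped. The sums of lymphocyte, neutrophil and erythroid markers overlapped between KO and WT too. In bulk tissue a change in the number of cells of a type and a change in RNA per cell cannot be told apart. Leaving out KO 2 and WT 4, the libraries that stand apart in Cyp4a10, gave log2 changes of 2.38 for Gsta1, 2.54 for Gsta2, 2.01 for Gm10639, 1.05 for Gsta4 and -0.14 for Gsta3.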

How the data were processed

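RNA levels of 8 liver libraries (4 KO, 4 WT) were read from 1 table. The authors deposited FPKM values for 35638 Ensembl genes, per the file headers. The submitters' processing notes name TopHat, edgeR and the build mm10, without versions or roles. What computed FPKM, from which annotation and with what strand setting was not given in the sources. FPKM divides by library size, so a few abundant transcripts lower all other values.

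Columns were matched to samples by name. Of the gene IDs 99.4% matched GENCODE M21 (GRCm38, the build mm10), which gave coordinates and coding sequences. Promoters came from RefSeq. Depth was estimated from whole-read steps in low values of genes with a single transcript of at least 400 nt. With it 50.7 to 54.8% of those values came within 0.1 of whole reads (chance gives 20%), so read numbers are approximate, may be off by a factor of 2 and cover counting error only.

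Values were taken as log2(FPKM + 1) for 11266 genes with a mean of at least 1 FPKM, a scale that understates the change of low genes. KO was tested against WT by limma 3.58.1 under R 4.3.3 (intensity trend, two-sided, Benjamini-Hochberg, threshold 0.05), tested on simulated data. Plots and alignments used Python 3.11.15, matplotlib 3.10.9 and Biopython 1.88. The 5 genes and all gene lists were chosen with earlier results of these data known. Genes named are these 5, tested genes within 500 kb, up to 4 called genes per list or else the smallest p, and the 3 nearest profiles of Gsta1, Gsta2 and Gsta4. Others were chosen after their values were seen. A planned comparison of protein sequences was replaced by coding sequences. Alternatives were pseudocounts of 0.1 and 5 FPKM, dropping the filter, a minimum of 5 FPKM, equal sums, quantile and median ratio scaling, no trend, array weights, a replicate block, and fits without each library in turn. The fit without KO 2 and WT 4 together was chosen after seeing the data.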

Additional observations from a re-analysis of the deposited data

Results flagged for a closer look

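In 4 of the 80 groups of 4 libraries examined, 1 library lay far from the other 3, beside about 4 that chance alone would give. Ccbl1, the cysteine conjugate lyase gene, was at 43.6 FPKM in KO 1, below 60.9 to 64.4 FPKM in the other KO libraries. Gclc, of glutathione synthesis, was at 26.9 FPKM in KO 3, below 38.6 to 39.4 FPKM in the other KO libraries. Slc17a5, a neighbour of the chromosome 9 cluster, was at 3.96 FPKM in KO 4, above 1.53 to 1.80 FPKM in the other KO libraries. Nr1i3, the gene of the receptor CAR and chosen after its values were seen, was at 76.7 FPKM in KO 2, above 25.0 to 29.2 FPKM in the other KO libraries. That choice enters the count of 4, so its comparison with chance is not clean. No value of the 5 alpha-class genes was of this kind in KO or WT.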

How the results depend on the processing

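The 4 alpha-class genes of chromosome 9 had a positive log2 change under every alternative run, and the size depended on the pseudocount. Every KO library lay above every WT library in these genes, which were chosen on this contrast. Another pseudocount, filter, trend, weighting or block, or a library left out, therefore could not turn the sign. The kept sign is no added support, and only the sizes are informative. With 0.1 FPKM the change was 3.30 for Gsta1 and 2.61 for Gm10639, and with 5 FPKM it was 1.21 for Gsta1, 1.93 for Gsta2 and 1.02 for Gm10639. Gsta1 and Gm10639 fell under a minimum of 5 FPKM and have no value there. When 1 library was left out, the change ran from 2.31 to 2.48 for Gsta1, 2.49 to 2.94 for Gsta2, 1.84 to 2.07 for Gm10639, 1.04 to 1.21 for Gsta4 and -0.28 to 0.11 for Gsta3. Equal sums moved the median change of all genes to -0.12, and under it the change was 1.03 for Gsta4 and -0.23 for Gsta3, before any allowance for that median.

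Over all genes 46 were higher and 40 lower. The higher count was 27 with a pseudocount of 5 FPKM, 14 with a minimum of 5 FPKM, 16 with the replicate block, 75 without KO 2 and WT 4 together, and 20 to 92 without single libraries. The lower count was 26 with no filter, 13 with a minimum of 5 FPKM, 8 with the replicate block, and 14 to 44 without single libraries. Of the other glutathione transferases 1 rose, and 0 with the replicate block, with 0 to 1 without single libraries. Of the 111 other pathway genes 3 rose and 1 fell. The higher count was 1 with a pseudocount of 0.1 FPKM, with no filter, with a minimum of 5 FPKM and without KO 2 and WT 4 together, and 1 to 2 without single libraries. The lower count was 0 with the replicate block, 2 without KO 2 and WT 4 together, and 1 to 2 without single libraries. The cause was not tested.

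Between same-numbered KO and WT libraries, deviations from the group means had correlations of 0.10, -0.07, 0.02 and 0.25. The labels give no link beyond the number. With 4 libraries per group these correlations cannot exclude a shared batch. With the replicate block the limma adjusted p was 0.0756 for Gstm3, 0.0559 for Abcc3, 0.118 for Abcc4 and 0.0961 for Gm8074. Depth limits the low WT levels, such as that of Gsta1 at about 4.99 to 12.6 estimated reads, and WT values near 0 of Gm8074, H19 and Tff3 are limited too.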
